A study of Mus musculus with 6 samples.

Results

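Toll-like receptors are membrane proteins that recognise microbial products, and their adaptors carry the signal into the cell. The genes described here are 6 receptors (Tlr1, Tlr2, Tlr4, Tlr7, Tlr9 and Tlr13), the co-receptor Cd14 and the adaptors Myd88, Tirap and Ticam1, 10 of the 20938 genes in the expression table. They were picked by name with earlier results of these data known, so their differences between the groups are given as a description, without p-values. RNA was sequenced from RAW264.7, an established mouse macrophage-like line that forms osteoclasts, the multinucleated cells that resorb bone, when it is induced to differentiate. All 6 libraries come from cells put through that induction, with an agent not given in the sources used here. Cells of 3 libraries (NBIF 1 to 3) were treated with 8 µM of the plant isoflavone neobavaisoflavone (NBIF), and cells of the other 3 (DMSO 1 to 3) received an equal volume of the solvent DMSO. No library of uninduced cells was analysed here.

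Surface receptors of this family bind microbial lipids and proteins, and endosomal members bind nucleic acids taken up by the cell. Most signal through the adaptor MyD88, which assembles kinases that switch on NF-kB and MAP kinases. TRIF, the product of Ticam1, serves TLR3 and TLR4 and leads to type I interferon. Macrophages express many of these receptors, and their ligands are known to restrain the early steps of osteoclast formation while favouring the survival of osteoclasts already formed.

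Values are FPKM, fragments per kilobase of transcript scaled to sequencing depth. Levels of different genes can be set side by side only as far as the gene lengths used, which are not given, are right. The FPKM of a library summed to between 484603 and 494172, and 13073 to 13415 genes were above 0. FPKM do not give a read number; relative depth, read from repeated ratios between low values, was 0.886 to 1.09 times that of DMSO 1. The labels give bone marrow as the tissue, yet the markers of other cells given here were at or near 0. Summed over the list, neutrophil markers (Ly6g, S100a8, S100a9, Mpo, Elane) reached at most 0.113 FPKM in NBIF libraries and 0.309 FPKM in DMSO libraries, T cell markers 0.124 and 0.262 FPKM, and stromal markers 0.509 and 0.216 FPKM. S100a9 and Elane were listed at 0 in all 6 libraries. Epithelial markers reached 0.0515 FPKM with NBIF and 0.191 FPKM with DMSO. Whether replicates are separate cultures is not in the labels, so each p reflects the spread of these libraries alone, which may be technical.

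The DNA before a listed start is shown for Tirap, the adaptor whose level differed most between libraries. Also shown are Tlr13 and Ticam1, the receptor and the adaptor that were lower with NBIF and have an entry. Tlr9 and Myd88 are shown as an endosomal receptor and an adaptor whose levels differed little. Entries were found for 7 of the 10 genes in a RefSeq table (GRCm38.p6); Tlr4, Tlr7 and Cd14 are named only. Of the 250 bases before the start, the longest stretch free of annotated exons is printed, 5′ to 3′ on the gene's strand. Capitals mark matches, on either strand, to GAGGAAG (ETS factors such as PU.1), GGG and TTTCC with 2 free bases between them (NF-kB), GAAA and GAAA with 2 free bases between them (interferon regulatory factors), TGANTCA (AP-1) or TGGAAA (NFAT).
Tirap (chr9:35199989-35200164, minus strand): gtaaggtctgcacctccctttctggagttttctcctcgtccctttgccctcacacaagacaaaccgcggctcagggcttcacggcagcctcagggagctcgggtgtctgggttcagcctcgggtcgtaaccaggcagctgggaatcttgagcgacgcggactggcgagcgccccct
Myd88 (chr9:119340042-119340268, minus strand): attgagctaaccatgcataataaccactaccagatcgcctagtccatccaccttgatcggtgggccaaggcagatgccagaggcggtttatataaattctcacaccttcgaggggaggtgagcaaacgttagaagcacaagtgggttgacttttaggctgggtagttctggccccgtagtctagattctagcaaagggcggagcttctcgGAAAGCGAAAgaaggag
Ticam1 (chr17:56276787-56277017, minus strand): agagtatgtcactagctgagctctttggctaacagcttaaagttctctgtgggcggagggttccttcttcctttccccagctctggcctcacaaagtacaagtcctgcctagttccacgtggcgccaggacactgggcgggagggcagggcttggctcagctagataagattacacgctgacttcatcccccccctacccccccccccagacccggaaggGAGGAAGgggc
Tlr13 (chrX:106143025-106143203, plus strand): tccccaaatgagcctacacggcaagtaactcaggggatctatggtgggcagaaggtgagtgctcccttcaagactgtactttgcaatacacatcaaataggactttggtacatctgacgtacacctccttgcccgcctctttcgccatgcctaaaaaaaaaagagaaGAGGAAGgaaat
Tlr9 (chr9:106222348-106222597, plus strand): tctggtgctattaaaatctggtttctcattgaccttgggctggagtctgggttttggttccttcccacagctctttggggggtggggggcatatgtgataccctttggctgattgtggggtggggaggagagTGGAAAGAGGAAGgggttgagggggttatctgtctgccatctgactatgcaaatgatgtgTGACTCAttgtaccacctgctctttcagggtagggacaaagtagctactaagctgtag

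The ETS letters lie before Tlr13, Ticam1, Tlr9 and Tlr1, and 10.6% of 32851 promoter windows of 250 bases in the table hold them. The interferon regulatory factor letters before Myd88 are held by 2.98% of windows. In Tlr9 the NFAT letters (18.6% of windows) stand directly before the ETS letters without overlap, and the AP-1 letters (6.75%) lie closer to the start. The NFAT letters also lie before the second listed start of Tlr1. None of the 5 motifs is in the 250 bases before either listed start of Tirap, and the NF-kB letters (1.41%) are before none of the 7 genes with an entry. Other forms of the NF-kB letters were not searched, and the bases before Tlr2 hold a run close to them, gggaattccc. Both Tirap windows and the Myd88 window lie inside the annotated gene spans, whose 5′ ends are at 35200291 and 119341411. The DNA before those outermost 5′ ends of Tirap and Myd88 was not searched. A match is a run of letters and not evidence of binding.

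**Figure D1:**
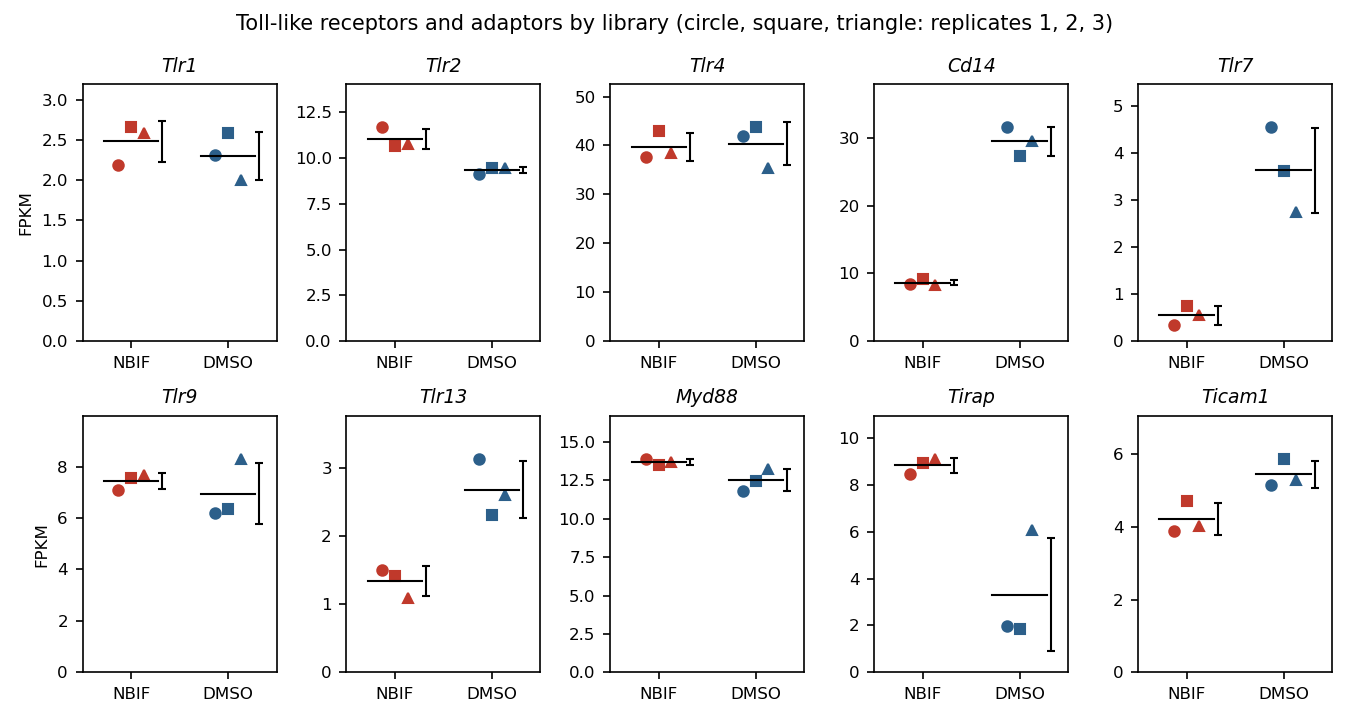
FPKM of the 10 genes (vertical axes, each starting at 0) in the 3 NBIF libraries (red, left) and the 3 DMSO libraries (blue, right); lines are means, bars are SD, and symbols mark the replicate number. Cd14, Tlr7 and Tlr13 lie lower with NBIF in every library, and Tirap lies higher with a wide spread among DMSO libraries (1.86 to 6.08 FPKM).

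Among the surface receptors and their partners, Cd14 was lower with NBIF, Tlr2 slightly higher, and the groups overlapped for Tlr4 and Tlr1. CD14 binds lipopolysaccharide and hands it to TLR4. Cd14 had 8.42, 9.12 and 8.33 FPKM in the NBIF libraries, against 31.6, 27.4 and 29.5 FPKM in the DMSO libraries. Every NBIF library lay below every DMSO library, and each group lay close together. The means were 8.63 ± 0.434 FPKM with NBIF and 29.5 ± 2.11 FPKM with DMSO (SD, n = 3 each), a log2 change of -1.66 ± 0.069 (SE) on the log2(FPKM + 1) scale. Each SE given here comes from the limma fit described below, which draws the spread of a gene toward that of genes of similar level. In bulk samples, fewer cells of a type and less RNA per cell cannot be told apart.

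Tlr4, the receptor for lipopolysaccharide and the most abundant of the 10 genes in both groups, had 37.7, 43.0 and 38.4 FPKM with NBIF and 42.0, 43.7 and 35.3 FPKM with DMSO. The groups overlapped fully, and the log2 change was -0.020 ± 0.086 (SE). Cd14 per unit of Tlr4 was 0.223, 0.212 and 0.217 in NBIF libraries and 0.752, 0.626 and 0.835 in DMSO libraries. Ly96 (MD-2), the partner that completes the lipopolysaccharide receptor, averaged 12.5 ± 1.15 FPKM with NBIF and 14.4 ± 3.50 FPKM with DMSO, where DMSO 3 was lowest, and did not pass the test described below (limma adjusted p = 0.488).

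Tlr2, which senses bacterial lipopeptides, was slightly higher with NBIF. Its values were 11.7, 10.6 and 10.8 FPKM with NBIF and 9.15, 9.46 and 9.45 FPKM with DMSO, without overlap and with a log2 change of 0.22 ± 0.061 (SE). Tlr1, a partner of Tlr2, had 2.20, 2.66 and 2.59 FPKM with NBIF and 2.32, 2.59 and 2.00 FPKM with DMSO, and the groups overlapped. The other partner, Tlr6, averaged 1.26 ± 0.257 FPKM with NBIF and 1.21 ± 0.237 FPKM with DMSO (limma adjusted p = 0.891).

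Of the endosomal receptors, Tlr7 and Tlr13 were lower with NBIF while the groups overlapped for Tlr9. TLR7 recognises single-stranded RNA. Tlr7 had 0.346, 0.750 and 0.544 FPKM in the NBIF libraries, against 4.54, 3.61 and 2.74 FPKM in the DMSO libraries. All NBIF libraries lay below 1 FPKM and all DMSO libraries above it, so the gene entered the fit through its DMSO values. The mean was 6.64-fold higher in DMSO, and the log2 change was -1.57 ± 0.15 (SE). It was -2.55 when 0.1 was added to FPKM in place of 1, and -0.63 when 5 was added.

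TLR13, a receptor of mice for bacterial ribosomal RNA, followed the same direction at a smaller size. Tlr13 had 1.51, 1.41 and 1.09 FPKM with NBIF and 3.14, 2.31 and 2.60 FPKM with DMSO, without overlap. The mean was 2.01-fold higher in DMSO, and the log2 change was -0.65 ± 0.11 (SE; -0.28 with a pseudocount of 5). Both genes lie on the X chromosome (Tlr7 at 167304929 to 167330558 and Tlr13 at 106143204 to 106160493 in GRCm38), far apart from each other.

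Tlr9, the receptor for unmethylated CpG DNA, had 7.07, 7.56 and 7.68 FPKM with NBIF and 6.18, 6.35 and 8.30 FPKM with DMSO. DMSO 3 was the highest library of all and DMSO 1 the lowest, so the groups overlapped (log2 change 0.096 ± 0.10, SE). Leaving out DMSO 3 moved the log2 change to 0.21, and leaving out DMSO 1 moved it to 0.028. Tlr7 per unit of Tlr9 was 0.0489, 0.0992 and 0.0708 in NBIF libraries and 0.735, 0.568 and 0.330 in DMSO libraries.

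The remaining receptors of the family were low or absent from both groups. Tlr3, the receptor for double-stranded RNA, averaged 0.362 ± 0.0317 FPKM with NBIF and 0.199 ± 0.121 FPKM with DMSO, below the filter of the test. Tlr8 averaged 0.0515 ± 0.0188 FPKM with NBIF and 0.104 ± 0.0198 FPKM with DMSO. Tlr5 was listed at 0 in every library but DMSO 3 (0.0141 FPKM), and Tlr11 and Tlr12 were listed at 0 in all 6.

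Among the adaptors, Tirap was higher with NBIF, Ticam1 was lower and Myd88 differed by little. Myd88 had 13.9, 13.5 and 13.7 FPKM with NBIF and 11.8, 12.4 and 13.3 FPKM with DMSO. The lowest NBIF library stood just above the highest DMSO library, and the log2 change was 0.12 ± 0.060 (SE; 0.070 after quantile normalization). Ticam1 had 3.88, 4.72 and 4.04 FPKM with NBIF and 5.17, 5.88 and 5.29 FPKM with DMSO, again without overlap. Its log2 change was -0.31 ± 0.084 (SE; -0.18 with a pseudocount of 5). Ticam2 (TRAM), which bridges TRIF to TLR4, averaged 5.26 ± 0.303 FPKM with NBIF and 5.87 ± 0.361 FPKM with DMSO (limma adjusted p = 0.231).

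TIRAP (also called MAL) is the adaptor that brings MyD88 to TLR2 and TLR4 at the membrane. Tirap had 8.47, 8.91 and 9.10 FPKM in NBIF 1, 2 and 3, against 1.99, 1.86 and 6.08 FPKM in DMSO 1, 2 and 3. The NBIF libraries lay close together, DMSO 1 and DMSO 2 lay close together, and DMSO 3 stood between them and nearer to the NBIF level. How the transcripts of a gene were combined into its FPKM is unknown, and the part of this in the DMSO values was not tested. The NBIF mean was 4.45 times the value of DMSO 1, 4.74 times that of DMSO 2 and 1.45 times that of DMSO 3, and DMSO 3 was itself 3.06 times DMSO 1. Tirap averaged 8.83 ± 0.323 FPKM with NBIF and 3.31 ± 2.40 FPKM with DMSO (SD, n = 3 each).

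The log2 change of Tirap was 1.32 ± 0.30 (SE). It was 1.75 without DMSO 3, 1.13 without DMSO 1 and 1.10 without DMSO 2, and 0.77 with a pseudocount of 5. The SE is that of the limma fit, and the spread of Tirap alone gives a larger one. On the log2(FPKM + 1) scale the DMSO libraries spanned 1.31, against 0.093 for the NBIF libraries, while the median tested gene spanned 0.163 within DMSO and 0.127 within NBIF. Only 29 of 9936 tested genes (0.292%) had a DMSO range at least as wide, Tirap included. The widest DMSO range among the other 9 genes was that of Tlr7, 0.57, which 2.38% of genes reached. Since these genes were picked with earlier results of these data known, the shares are a description and nothing is read from them. Tirap per unit of Myd88 was 0.609, 0.659 and 0.666 in NBIF libraries and 0.168, 0.150 and 0.458 in DMSO libraries.

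**Figure D2:**
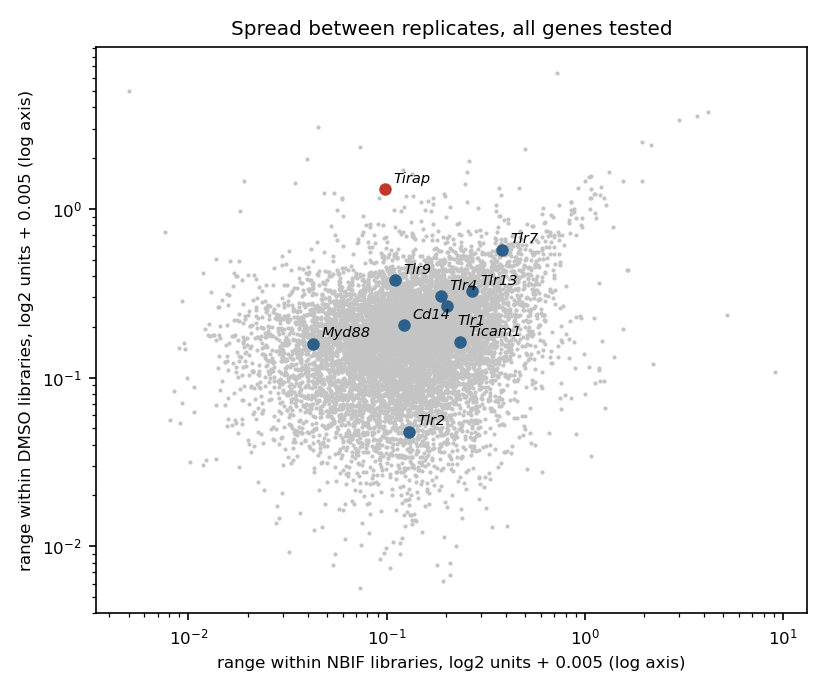
Range of each tested gene between replicates within the NBIF libraries (horizontal) and within the DMSO libraries (vertical), in units of log2(FPKM + 1) with 0.005 added, on log axes; grey points are all 9936 genes, blue points the receptors, Cd14 and the other adaptors, and the red point Tirap. Tirap combines a narrow NBIF range (0.093) with a wide DMSO range (1.31).

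Tirap lies on chromosome 9 (35184551 to 35200291, minus strand, GRCm38) and has 7 annotated transcripts of 509 to 4589 bases, more than any of the other 9 genes. Its 5′ end shares 117 bases with that of Srpr, a signal recognition particle receptor gene read from the opposite strand, and the antisense gene Gm39318 lies inside it, with no row of its own in the table. Since neither the strand setting nor the way transcripts enter a gene's value is given in the sources used here, reads of these overlapping genes cannot be told apart. Srpr had 173.8, 175.0 and 170.4 FPKM with NBIF and 140.7, 132.9 and 139.6 FPKM with DMSO, and its log2 change was 0.33 ± 0.043 (SE; limma adjusted p = 0.00147). Its DMSO libraries lay together, with DMSO 3 between the others.

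The next genes along the chromosome did not show the DMSO 3 step either. Foxred1 and Fam118b, on the minus strand, overlap the annotated span of Srpr: Foxred1 averaged 63.5 ± 3.69 FPKM with NBIF and 57.8 ± 3.58 FPKM with DMSO (limma adjusted p = 0.183), and Fam118b averaged 9.27 ± 0.262 and 8.20 ± 0.554 FPKM (0.135). On the other side, Dcps, an mRNA decapping enzyme gene, averaged 15.8 ± 1.23 FPKM with NBIF and 14.2 ± 0.964 FPKM with DMSO (0.207), St3gal4 averaged 5.53 ± 0.537 and 6.18 ± 0.712 FPKM (0.356), and Kirrel3 was below 0.2 FPKM throughout.

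By the root mean square difference of centred log2(FPKM + 1) values over the 6 libraries, the genes nearest to Tirap in profile were H2-Eb1 (0.33), Cacul1 (0.34), Klrg2 (0.36), H2-Q8 (0.38) and Oas3 (0.40). Cacul1 had 19.7, 19.6 and 19.5 FPKM with NBIF and 9.99, 8.67 and 17.8 FPKM with DMSO, with the DMSO libraries in the same order as for Tirap and DMSO 3 near the NBIF level. The DMSO libraries spanned 0.96 in Cacul1 and less in the others, at 0.37 in H2-Eb1, 0.30 in Klrg2, 0.29 in H2-Q8 and 0.19 in Oas3. H2-Eb1, an MHC class II gene, had 6.52, 7.35 and 7.17 FPKM with NBIF and 1.81, 2.13 and 2.64 FPKM with DMSO. H2-Q8 has near-identical relatives, so its value is uncertain.

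**Figure D3:**
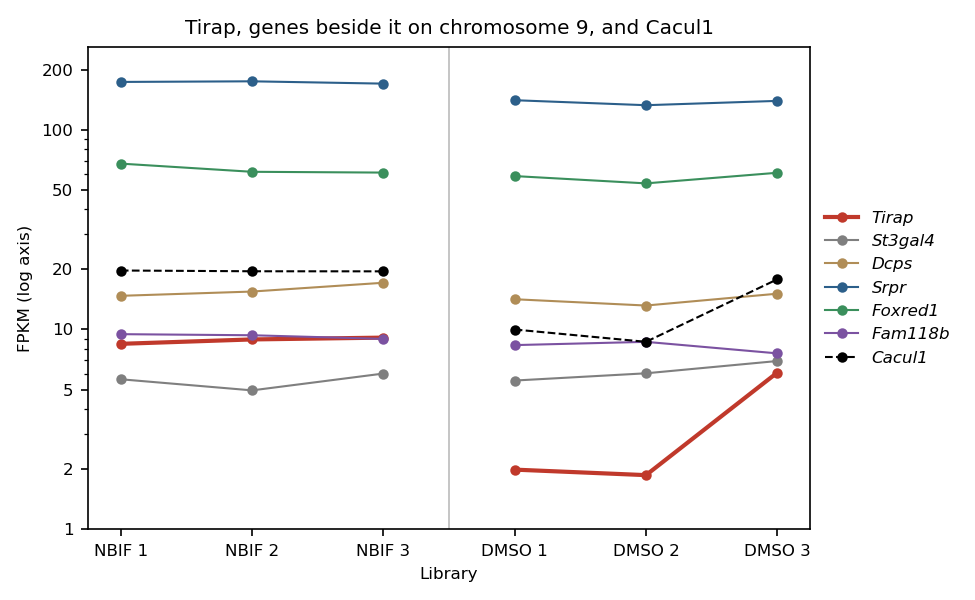
FPKM (log axis) in each library, NBIF left and DMSO right, of Tirap (thick red line), 5 genes beside it on chromosome 9 and Cacul1 (dashed). Tirap and Cacul1 lie higher in DMSO 3 than in DMSO 1 and DMSO 2 (6.08 against 1.99 and 1.86 FPKM for Tirap); the lines only join points of a gene.

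Ordered by level, the 10 genes ran from Tlr4 (39.7 ± 2.87 FPKM) through Myd88, Tlr2, Tirap, Cd14, Tlr9, Ticam1, Tlr1 and Tlr13 to Tlr7 (0.547 ± 0.202 FPKM) in the NBIF libraries. Neighbours in that order did not overlap, except Tirap and Cd14. In the DMSO libraries the order was Tlr4 (40.3 ± 4.43 FPKM), Cd14, Myd88, Tlr2, Tlr9, Ticam1, Tlr7, Tirap, Tlr13 and Tlr1 (2.30 ± 0.296 FPKM). There each gene from Tlr4 to Ticam1 stood apart from the next, while neighbours among Tlr7, Tirap, Tlr13 and Tlr1 overlapped. Cd14 moved down 3 places and Tirap up 4 places in the NBIF order. Both orders rest on gene lengths that were not given in the sources used here.

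All 10 genes passed the filter of the test across genes, an average of 1 FPKM or more over all libraries. That test was limma on log2(FPKM + 1) with Benjamini-Hochberg adjustment over 9936 genes. The groups did not overlap for 7 of the 10, of which Tlr2, Myd88 and Tirap were higher with NBIF and Tlr7, Tlr13, Cd14 and Ticam1 lower. Among all genes tested, 39.0% did not overlap, 24.6% higher and 14.3% lower. At an adjusted p under 0.05, 18.6% of all genes changed, 10.5% higher and 8.08% lower, and of the 10 genes 2 were higher and 4 lower. Because the genes were picked with this comparison known, nothing is read from these counts.

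The wider pathway was followed in 9 lists of 118 genes outside the 10, all with a row, of which 85 passed the filter. Of these 85, 14 rose with NBIF, 10 fell and 61 did not pass (28.2% changed, against 18.6% of all genes tested). The lists too were chosen with earlier results of these data known. Their p-values are therefore no independent test, and nothing is read from the difference in shares. Their median log2 change was 0.028, against 0.044 for all genes tested. After median-ratio scaling the counts were 12 higher and 13 lower (48% of changed genes higher, against 58.3% as reported), and over all genes the share higher was 41.3%, against 56.6%.

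**Figure D4:**
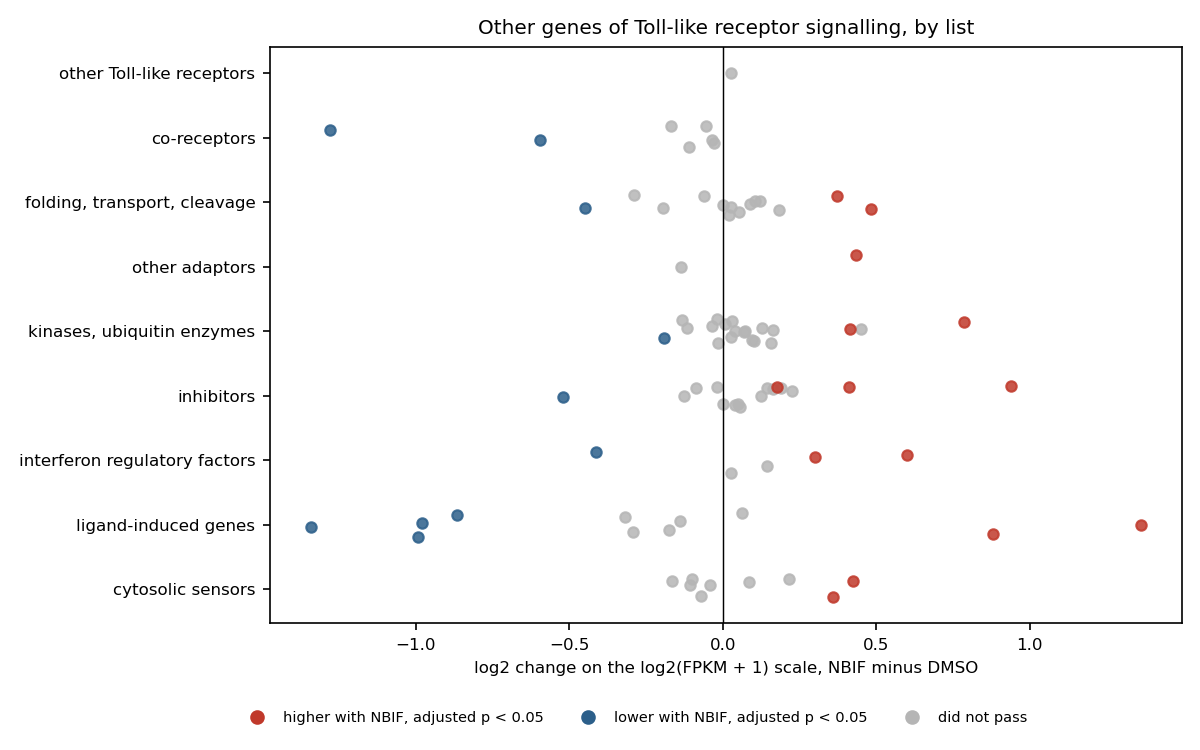
Log2 change with NBIF (horizontal) of the 85 tested genes of 9 lists (rows); points are genes, red where higher and blue where lower at a limma adjusted p under 0.05, grey where the test was not passed. The genes induced by ligands run from -1.34 (Ccl3) to 1.36 (Cd40), the widest range of the lists.

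Among co-receptors, 2 of 7 tested genes fell and 5 did not pass (median log2 change -0.11). Cd36, a scavenger receptor that presents lipids to TLR2, had 49.9, 55.1 and 52.4 FPKM with NBIF and 148.1, 115.8 and 124.4 FPKM with DMSO, and its log2 change was -1.28 ± 0.087 (SE; limma adjusted p = 5.16e-05). The integrin gene Itgam (CD11b) fell by 0.60 (adjusted p = 0.000205). Cd180 and Ly86, which form a receptor complex related to that of TLR4, did not pass (adjusted p = 0.195 and 0.698). Cd180 averaged 56.4 ± 2.13 FPKM with NBIF and 61.0 ± 2.87 FPKM with DMSO.

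Of 14 genes that fold, move or cleave these receptors, 2 rose, 1 fell and 11 did not pass (median 0.040). Hsp90b1 (gp96), the chaperone that folds most of the family, rose to 296.7 ± 1.99 FPKM with NBIF, against 212.5 ± 16.6 FPKM with DMSO (limma adjusted p = 0.000944). Ctss, a protease that cleaves endosomal receptors, rose to 574.1 ± 8.85 FPKM, against 444.1 ± 21.2 FPKM with DMSO (0.00103). Rab7b, a small GTPase that sends TLR4 and TLR9 to lysosomes, fell to 6.75 ± 0.220 FPKM, against 9.60 ± 0.859 FPKM with DMSO (0.00445). Unc93b1, the escort of endosomal receptors, averaged 199.6 ± 4.08 FPKM with NBIF and 185.6 ± 10.7 FPKM with DMSO (0.187), and Cnpy3, a cofactor of gp96, did not pass either (0.871).

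Beside Myd88, Tirap and Ticam1, the adaptor gene Pik3ap1 (BCAP), which links these receptors to PI3-kinase, rose to 92.8 ± 2.48 FPKM with NBIF, against 68.4 ± 1.83 FPKM with DMSO (log2 change 0.43 ± 0.046, SE, limma adjusted p = 0.000507). It was the 1 of 2 tested adaptors to pass. Sarm1 lay below the filter at 0.235 ± 0.0726 FPKM with NBIF and 0.172 ± 0.0672 FPKM with DMSO.

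Of 20 tested kinases and ubiquitin enzymes downstream, 2 rose, 1 fell and 17 did not pass (median 0.053). Irak2, a kinase of the MyD88 complex that sustains signalling, had 60.4, 59.3 and 58.7 FPKM with NBIF and 32.4, 34.0 and 36.0 FPKM with DMSO, and its log2 change was 0.79 ± 0.053 (SE; limma adjusted p = 5.08e-05). The groups stood well apart. Irak4, the first kinase of that complex, did not pass (9.15 ± 0.167 FPKM with NBIF and 9.46 ± 1.44 FPKM with DMSO, adjusted p = 0.834), nor did Irak1 (0.563) or the ubiquitin ligase gene Traf6 (0.802). Ikbke rose by 0.41 and Ikbkg (NEMO) fell by 0.19 on the log2 scale (adjusted p = 0.0139 and 0.0464). Ikbke passed the filter only through its NBIF libraries (1.44 ± 0.192 FPKM with NBIF and 0.826 ± 0.0394 FPKM with DMSO). The call of Ikbke was lost without NBIF 1 (0.0514), which left 1 gene of the list higher, and its change was 0.73 when 0.1 was added to FPKM and 0.14 when 5 was added. That of Ikbkg was lost in 8 of 16 alternatives (adjusted p up to 0.144), without each library in turn except DMSO 3, which left 0 genes lower.

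Of 16 tested inhibitors, 3 rose, 1 fell and 12 did not pass (median 0.090). Dusp1, a phosphatase that switches off MAP kinases, had 13.4, 15.7 and 14.0 FPKM with NBIF and 6.26, 8.23 and 6.63 FPKM with DMSO (log2 change 0.94 ± 0.10, SE, limma adjusted p = 0.000541). Tnfaip3 (A20), a ubiquitin-editing inhibitor of NF-kB, fell to 16.8 ± 1.55 FPKM, against 24.6 ± 3.71 FPKM with DMSO (0.0115). Sigirr rose by 0.41 (0.0496) and Tax1bp1, a partner of A20, by 0.18 (0.0301). The calls of Sigirr and Tax1bp1 were lost in 9 of 15 and 7 of 16 alternatives, among them leaving out any library but DMSO 3. With 0.1 or 5 added to FPKM the log2 change of Sigirr was 0.62 or 0.17. The number of inhibitors that rose was 1 without each of those 5 libraries or after median-ratio scaling, and 5 without DMSO 3. Tollip did not pass (0.829), and Irak3, at 0.450 ± 0.103 FPKM with NBIF and 0.759 ± 0.0575 FPKM with DMSO, lay below the filter.

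Among the 5 interferon regulatory factors of the pathway, 2 rose, 1 fell and 2 did not pass (median 0.14). Irf3, which acts below TRIF, rose to 15.6 ± 0.803 FPKM, against 12.4 ± 0.620 FPKM with DMSO (limma adjusted p = 0.0134), a call lost without NBIF 1 or DMSO 1 (adjusted p up to 0.0585), which left 1 factor higher. Irf7, which acts below TLR7 and TLR9, rose by 0.60 on the log2 scale (0.00323). Irf8 fell to 5.39 ± 0.355 FPKM, against 7.52 ± 0.775 FPKM with DMSO (0.0113). With 5 added to FPKM the log2 change was 0.24 for Irf7 (0.92 with 0.1) and -0.27 for Irf8.

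Of 29 genes that ligands of these receptors induce in macrophages, 11 passed the filter, 2 of them higher, 4 lower and 5 not passing (median -0.29). The chemokine genes Ccl3 and Ccl4 fell, Ccl4 to 3.55 ± 1.01 FPKM, against 8.06 ± 2.58 FPKM with DMSO (limma adjusted p = 0.0180), as did Acod1, which makes itaconate (0.00884) and passed the filter only through its DMSO libraries (0.629 ± 0.457 FPKM with NBIF and 2.17 ± 0.410 FPKM with DMSO). The costimulatory receptor gene Cd40 rose (0.00155). The call of Ccl4 was lost with a robust prior or without a filter (up to 0.0646), and when 5 was added to FPKM, Ccl4, Acod1 and Cd40 differed on the log2 scale by -0.60, -0.35 (-1.83 with 0.1) and 0.77. The other passing genes were the cytokine gene Il23a, which rose, and the chemokine gene Cxcl2, which fell. Tnf did not pass (7.37 ± 0.944 FPKM with NBIF and 8.43 ± 0.862 FPKM with DMSO, adjusted p = 0.269). Il12a, Il12b and Cxcl1 were listed at 0 in all 6 libraries.

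Of 9 tested cytosolic sensors, 2 rose, 0 fell and 7 did not pass (median -0.040). The DNA sensor gene Aim2 had 28.9, 28.8 and 28.6 FPKM with NBIF and 22.6, 23.8 and 20.4 FPKM with DMSO (limma adjusted p = 0.00638). Ddx58 (RIG-I), a sensor of viral RNA, rose by 0.43 on the log2 scale (0.0133; 0.27 with a pseudocount of 5).

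Markers of macrophages were lower in the same libraries as Cd14, Tlr7, Tlr13 and Cd36. Of 8 markers (Adgre1, Csf1r, Itgam, Cd68, Lyz2, Fcgr1, Mertk, Cx3cr1), the 7 tested fell and Mertk was at or near 0. Cx3cr1 passed the filter only through its DMSO libraries (0.749 ± 0.446 FPKM with NBIF and 5.38 ± 0.433 FPKM with DMSO). Their summed level ran from 1400 to 1459 FPKM in NBIF libraries and from 2290 to 2461 FPKM in DMSO libraries. Of 10 osteoclast markers, Acp5, Ctsk, Mmp9 and Ocstamp fell, Nfatc1 rose and the other 4 tested did not pass, with a summed level of 6023 to 6828 FPKM with NBIF and 7604 to 8199 FPKM with DMSO. Of 5 dendritic cell markers, Itgax fell and Zbtb46 did not pass, while Flt3, Ccr7 and Xcr1 were at or near 0, with a summed level of 29.5 to 32.4 FPKM with NBIF and 45.7 to 50.7 FPKM with DMSO. The part of these marker levels in the values of the receptors and of Cd14 was not tested.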

How the data were processed

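The authors deposited FPKM for each gene symbol in 3 NBIF and 3 DMSO libraries of total RNA from RAW264.7 cells. Per the submitters' processing notes, the tools included HISAT2 2.0.5, DESeq2 1.20.0, featureCounts 1.5.0-p3, fastp and CASAVA 1.8, with no roles stated. These notes name the human builds GRCh38 and hg38, while 97.9% of the symbols are mouse gene names. The annotation, gene lengths and strand use were not given in the sources used here. FPKM depends on these lengths and on the sum over all genes. No counts were recovered and no count model was fitted.

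Genes averaging 1 FPKM or more were fitted with limma 3.58.1 (R 4.3.3) on log2(FPKM + 1) (eBayes with a trend, two-sided, Benjamini-Hochberg over 9936 genes, threshold 0.05), a scale that understates changes of low genes. The procedure was tested on simulated data. The 10 genes and the lists were chosen with earlier results of these data known. Named pathway genes are the 4 passing genes of each list with the largest changes, the other receptors and the main partners of the receptors and adaptors; genes beside Tirap and the 5 nearest profiles are named whatever their values. Tnf, Il23a and Cxcl2 are named outside this rule, after their values were seen. So are the genes given under other observations for a wide range within 1 group. Positions come from GENCODE M21 and promoters from RefSeq (both GRCm38), matched by symbol. Mb21d1 of the pathway list was read under its current symbol, Cgas, from RefSeq. Alternatives were 2 other pseudocounts, other filters, scalings and priors, a replicate block, and each library left out.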

Additional observations from a re-analysis of the deposited data

How the results depend on the processing

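The number of genes changed with NBIF was 1850, and 1006 to 1889 when a library was left out (1006 without NBIF 1, 1152 without NBIF 2, 1153 without NBIF 3 and 1164 without DMSO 1). Of these 496 to 1067 were higher (1047 with all libraries) and 510 to 822 lower (803). The pathway count of 24 stayed within 1.5 times under the 16 alternatives, at 19 (filter at 5 FPKM) to 29 (without DMSO 3). Of the 24 calls, 17 held in each alternative that gave a value and 0 reversed. Cxcl2 was lost without a filter (adjusted p = 0.0558). Of 288 counts of single lists under an alternative, 24 moved by over 1.5 times. Same-numbered libraries deviated together weakly (correlations of 0.0784, 0.126 and 0.0355, and 4 of 6 libraries correlated best with their own number), so the numbers were not taken as pairs. With the replicate number as a block, 1632 genes changed (892 higher, 740 lower) and 24 pathway genes. Among the 10 genes, no log2 change changed sign under any alternative except that of Tlr4, which ran from -0.11 without DMSO 3 to 0.040 without DMSO 2. That of Tlr1 was 0.011 without DMSO 3 and 0.14 without DMSO 2. Depth is unknown, so no counting error is given for low genes such as Tlr7, Tlr8 or Tlr3.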

Other observations

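A wide range within 1 group beside a narrow range within the other also occurred in genes other than Tirap, in differing forms. A range of at least 1 on the log2(FPKM + 1) scale within DMSO, with a range under 0.2 within NBIF, was found for 23 tested genes, and the reverse for 13. This pattern was looked for after the values of Tirap were seen. Tbcel had 23.6, 23.6 and 23.8 FPKM with NBIF and 18.8, 7.69 and 6.21 FPKM with DMSO, without overlap. Retreg3 and Slc16a6 were likewise low in DMSO 2 and DMSO 3, with DMSO 1 nearer to the NBIF level and no overlap. Ube2v1, a ubiquitin enzyme cofactor that acts with Traf6, had 28.0, 28.3 and 28.6 FPKM with NBIF and 10.4, 27.2 and 29.5 FPKM with DMSO, so that here DMSO 1 stood apart. The AP-1 subunit gene Jund had 7.50, 7.56 and 7.32 FPKM with NBIF and 0.196, 7.75 and 9.06 FPKM with DMSO. Mdm4, an inhibitor of p53, had 133.0, 136.2 and 134.4 FPKM with NBIF and 119.5, 111.4 and 29.6 FPKM with DMSO, and Adnp had 27.3, 28.7 and 27.3 FPKM with NBIF and 28.3, 4.82 and 6.88 FPKM with DMSO. Each of the DMSO libraries was the low library of at least 1 of these genes. Among genes wide within NBIF, Dag1 (dystroglycan) had 4.92, 21.0 and 3.78 FPKM with NBIF and 23.7, 22.9 and 24.9 FPKM with DMSO. The ribosomal protein gene Rps27 had 1.35, 636 and 0.184 FPKM with NBIF and 1.44, 1.44 and 1.27 FPKM with DMSO. What these genes share in the annotation was not tested.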
